A study of Mus musculus with 18 samples.

Results

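The genes of cholesterol synthesis, uptake and export were read as a group of 31 named genes in mouse embryonic fibroblasts (MEFs). They were taken by name, by a rule that uses no measured value, though the list was drawn up with earlier results of these data known. Each gene was read from the probe set that names it alone, and from the one with the highest mean over the 18 arrays where a gene has several. Of the 31 genes 29 have such a probe set, among 19937 genes in all, and all 29 were among the 15711 genes tested. The 29 comprise 6 enzymes of the mevalonate pathway, 11 enzymes that turn its product into cholesterol, 4 regulators, 5 genes of uptake and transport and 3 genes of export. Acat2 and Soat1 were not analysed here. Every level below is a log2 signal on the gene's own probe set, so levels of different genes are not set against each other. Every change is a log2 difference ± standard error from limma, with n = 3 arrays in each group, and a gene was called at a Benjamini-Hochberg adjusted p below 0.05 over all genes tested.

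The MEFs were of strain 129sv/ev, and their RNA was read on Affymetrix mouse gene arrays. There were 6 groups of 3 arrays, numbered 1, 2 and 4 in each. KO cells, of the line labelled NFAT5 knock-out 5.1, were kept in hypertonic medium or in isotonic medium. WT cells, of the line labelled NFAT5 wild-type 5.4, were kept in hypertonic medium with Torin1, hypertonic medium alone, isotonic medium with Torin1 or isotonic medium alone. Torin1 is an inhibitor of the kinase mTOR and was given at 100 nM as a pretreatment of 1 h. Titles mark hypertonic medium with 500 and isotonic medium with 300 and give no unit, and how long cells stayed in the medium is not given. Nfat5 encodes the transcription factor that turns on osmolyte genes when the medium becomes hypertonic. Each genotype is 1 line, so genotype and line cannot be told apart. Whether the 3 arrays of a group stem from 3 cultures is not given, and the p-values below then speak only of array-to-array spread, which may be technical. In bulk RNA, fewer cells that express a gene and less RNA of that gene per cell cannot be told apart.

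Cells make cholesterol from acetyl-CoA through mevalonate and the isoprenoid farnesyl diphosphate, which the branch enzyme squalene synthase commits to sterols. When the endoplasmic reticulum is low in sterol, SCAP escorts the membrane-bound factor SREBP2, the product of Srebf2, to the Golgi, where it is cut to release a factor that turns on nearly every enzyme of the pathway. INSIG proteins hold SCAP back when sterol is plentiful. Oxysterols activate LXR receptors, which turn on the ABC exporters that load cholesterol onto lipoproteins. SREBP2 binds DNA together with the factors NF-Y and Sp1.

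RefSeq promoters of GRCm38.p6, each 300 bases with 250 before and 50 after the start of transcription, were found for 22 of the 29 measured genes (29 windows). The windows were searched on both strands for letters bound by these factors. The NF-Y box CCAAT stood in 19 of the 22 genes and in all 14 synthesis enzymes that have a window, against 41.7% of tested genes with a window. The GC box GGGCGG, bound by Sp1, stood in 20 of 22, against 62.8%. The sterol element TCACNCCAC stood in Hmgcs1 only, at position -137 from its start, against 1.49% of tested genes. The E-box CACGTG stood in 6 of 22 (10.9% of tested genes), and TGGAAA, the core bound by NFAT5, in 5 of 22 (19.7%). An LXR element, AGGTCA repeated with 4 bases between the copies, was in 0 of 22 and in 0.0152% of all promoters. CCAAT read on the other strand and TGGAAA can share the letters TGG, so these counts are not fully separate. A match is a description of letters, not of binding.

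The windows of 5 genes are printed as examples of boxes before genes described further on, 4 synthesis enzymes that fell in hypertonic KO cells and the exporter Abca1, whose window holds no NF-Y box. No motif was set against a change in expression. Each is written 5′ to 3′ on the gene's strand, with capitals at NF-Y boxes on either strand and at the sterol element. The Hmgcs1 window lies at chr13:119690101-119690400 (plus strand), the Mvk window at chr5:114444019-114444318 (plus), the Nsdhl window at chrX:72918271-72918570 (plus) and the Abca1 window at chr4:53159846-53160145 (minus). For Dhcr7, which has 3 windows, the window with NF-Y boxes is shown, at chr7:143829964-143830263 (plus).
Hmgcs1: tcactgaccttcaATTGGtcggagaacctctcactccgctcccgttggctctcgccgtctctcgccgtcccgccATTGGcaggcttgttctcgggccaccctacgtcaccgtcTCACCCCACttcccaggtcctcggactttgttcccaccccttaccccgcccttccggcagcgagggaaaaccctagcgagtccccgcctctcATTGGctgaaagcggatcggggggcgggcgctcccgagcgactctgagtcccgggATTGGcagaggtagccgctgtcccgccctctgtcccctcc
Mvk: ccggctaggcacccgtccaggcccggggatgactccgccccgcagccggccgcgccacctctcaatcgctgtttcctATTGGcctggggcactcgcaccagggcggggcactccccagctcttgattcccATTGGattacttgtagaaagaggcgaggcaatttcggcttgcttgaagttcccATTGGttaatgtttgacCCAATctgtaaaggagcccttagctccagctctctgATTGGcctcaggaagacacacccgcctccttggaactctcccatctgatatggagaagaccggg
Nsdhl: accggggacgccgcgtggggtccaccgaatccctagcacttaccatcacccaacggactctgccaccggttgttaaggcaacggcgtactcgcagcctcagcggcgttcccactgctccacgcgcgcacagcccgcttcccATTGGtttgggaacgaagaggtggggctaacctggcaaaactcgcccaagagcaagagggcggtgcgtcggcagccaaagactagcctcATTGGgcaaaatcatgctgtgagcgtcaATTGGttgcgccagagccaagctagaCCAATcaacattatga
Dhcr7: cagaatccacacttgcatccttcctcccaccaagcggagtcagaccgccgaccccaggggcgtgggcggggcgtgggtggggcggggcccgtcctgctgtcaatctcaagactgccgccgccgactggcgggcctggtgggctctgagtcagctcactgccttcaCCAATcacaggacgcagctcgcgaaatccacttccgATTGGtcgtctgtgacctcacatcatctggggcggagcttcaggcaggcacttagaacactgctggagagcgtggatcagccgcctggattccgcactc
Abca1: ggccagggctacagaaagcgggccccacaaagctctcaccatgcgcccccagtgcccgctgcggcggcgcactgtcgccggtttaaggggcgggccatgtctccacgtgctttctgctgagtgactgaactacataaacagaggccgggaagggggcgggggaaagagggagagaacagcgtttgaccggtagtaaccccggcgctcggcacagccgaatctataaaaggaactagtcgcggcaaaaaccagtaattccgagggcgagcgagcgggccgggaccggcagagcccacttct

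Arrays of a group correlated at r from 0.968 to 0.997, and the median gene-level signal of an array was 7.53 to 7.74. Nfat5 read 10.13, 10.22 and 9.73 in hypertonic KO cells, against 10.77, 10.46 and 10.18 in hypertonic WT cells, and 9.83, 9.72 and 9.73 in isotonic KO cells, against 10.13, 9.99 and 9.94 in isotonic WT cells. KO minus WT was -0.44 ± 0.16 in hypertonic medium (limma adjusted p = 0.0503 without and 0.00591 with a block for the array number) and -0.26 ± 0.16 in isotonic medium (0.367). The sources used here do not say if this probe set reads the deleted part, so it does not check the genotype. All 10 fibroblast markers passed the filter on low signals, Col1a1, Vim and Fn1 among them, and their mean level was 11.34 to 12.27 over the 18 arrays. Thy1 averaged 10.92 and 10.79 in hypertonic and isotonic KO cells, against 6.91 to 7.14 in the 4 WT groups. Of 6 adipocyte markers 5 passed the filter, Lep not. The mean level of the 6 was at least 7.21 on every KO array, against at most 6.58 on every WT array, and Pparg averaged 11.07 and 11.28 in KO cells against 7.06 to 7.43 in the WT groups. Plin1 overlapped between the lines, averaging 6.93 and 6.75 in hypertonic and isotonic KO cells against 6.66 to 6.82. The 4 epithelial markers all passed, and their mean was 6.89 to 7.22 on KO arrays, against 6.51 to 6.77 on WT arrays. Among them Cdh1 averaged 7.48 in hypertonic and 8.34 in isotonic KO cells, against 6.62 to 6.78 in the WT groups. In isotonic medium Epcam and Krt8 averaged 5.81 and 7.59 in KO cells, against 5.86 and 7.66 in WT cells. Krt18 averaged 6.63 against 6.50 there. Of 4 endothelial markers 3 passed, Kdr not, and their array means overlapped between the lines, from 6.11 to 6.83 in KO and from 5.76 to 6.11 in WT arrays. Among them Tek averaged 8.47 in hypertonic and 7.87 in isotonic KO cells, against 5.82 to 6.10 in the WT groups, and Cdh5 averaged 6.31 and 6.23, against 6.14 to 6.24. Of 7 macrophage markers Cd68, Csf1r, Lyz2 and Cd14 passed and Adgre1, Ptprc and Aif1 did not. Csf1r averaged 7.30 and 7.43 in hypertonic and isotonic KO cells, 8.81 and 7.77 in Torin1-treated WT cells (hypertonic, then isotonic), and 8.66 and 7.91 in untreated WT cells (same order). The hepatocyte marker Apoa1 passed and Alb and Ttr did not. The part of these markers in any result below was not tested.

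There are 2 arrays that call for care. The title of isotonic KO array 1 says KO while its genotype field says wild-type. It was placed by its title. Its Thy1 and Pparg levels were 10.64 and 11.73, against at most 7.22 and 7.91 on any WT array. Isotonic WT array 1 resembled its same-numbered partner with Torin1: only 2 of 15711 genes differed by more than 1 log2 between these arrays (r = 0.9976), against 52 and 73 genes for numbers 2 and 4. The mean of the 17 measured synthesis enzymes was 9.30 on that array, against 9.92 and 9.83 on isotonic WT arrays 2 and 4. Whether an array was swapped or hybridised again cannot be told apart from a real likeness with these files, and every comparison with isotonic WT cells uses this array. Most counts of called genes that rest on either array are given with and without it. Counts of genes whose arrays do not overlap are given with all arrays only. For counts at an unadjusted p with an array left out, the share of all genes is not given here. The same holds for the share of all genes called without isotonic KO array 1.

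**Figure D1:**
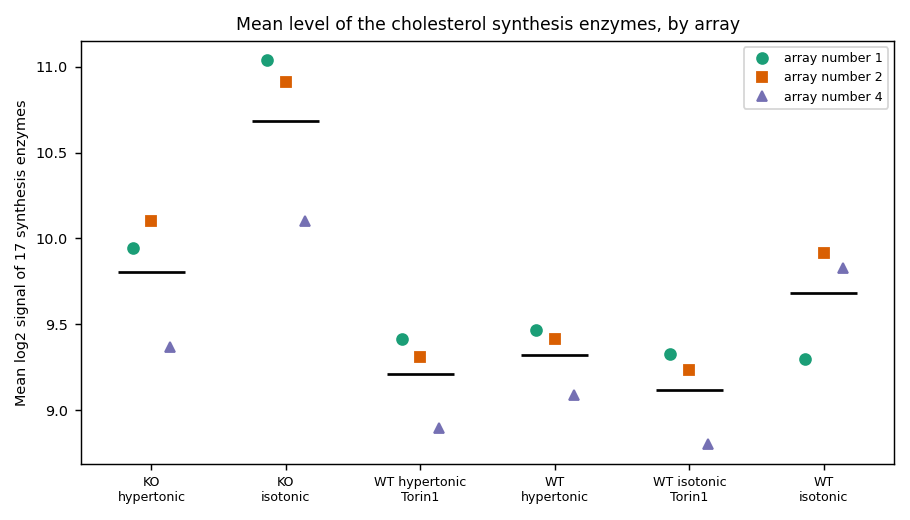
Mean log2 signal of the 17 synthesis enzymes on each of the 18 arrays (y axis), by group (x axis), with a bar at the group mean and the array number as marker shape. Isotonic KO arrays 1 and 2 are highest, at 11.04 and 10.91, and isotonic WT array 1, at 9.30, lies below the other isotonic WT arrays.

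The mean over the synthesis enzymes was 9.95, 10.10 and 9.37 in arrays 1, 2 and 4 of hypertonic KO cells, against 11.04, 10.91 and 10.10 in isotonic KO cells. It was 9.47, 9.41 and 9.09 in hypertonic WT cells, against 9.30, 9.92 and 9.83 in isotonic WT cells. With Torin1 it was 9.42, 9.31 and 8.90 in hypertonic and 9.33, 9.23 and 8.80 in isotonic WT cells. Hypertonic arrays lay below isotonic arrays in every number of KO cells and in numbers 2 and 4 of WT cells without Torin1. Array 4 was the lowest of its group in each group except isotonic WT. The KO arrays of number 4 also stood apart in other genes, chosen here after their values were seen. Postn, a fibroblast marker, read 8.81 and 9.63 on hypertonic and isotonic KO array 4, against 11.91 to 12.33 on the other KO arrays. Adipoq read 5.77 and 5.79 there, against 7.11 to 7.86. Ch25h, which makes an oxysterol, was high on array 4 of every group, at 10.25 to 11.34, against 6.15 to 8.75 on arrays 1 and 2. The part of these differences in the lower synthesis levels was not tested, and values without the arrays of number 4 are in the closing section.

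**Figure D2:**
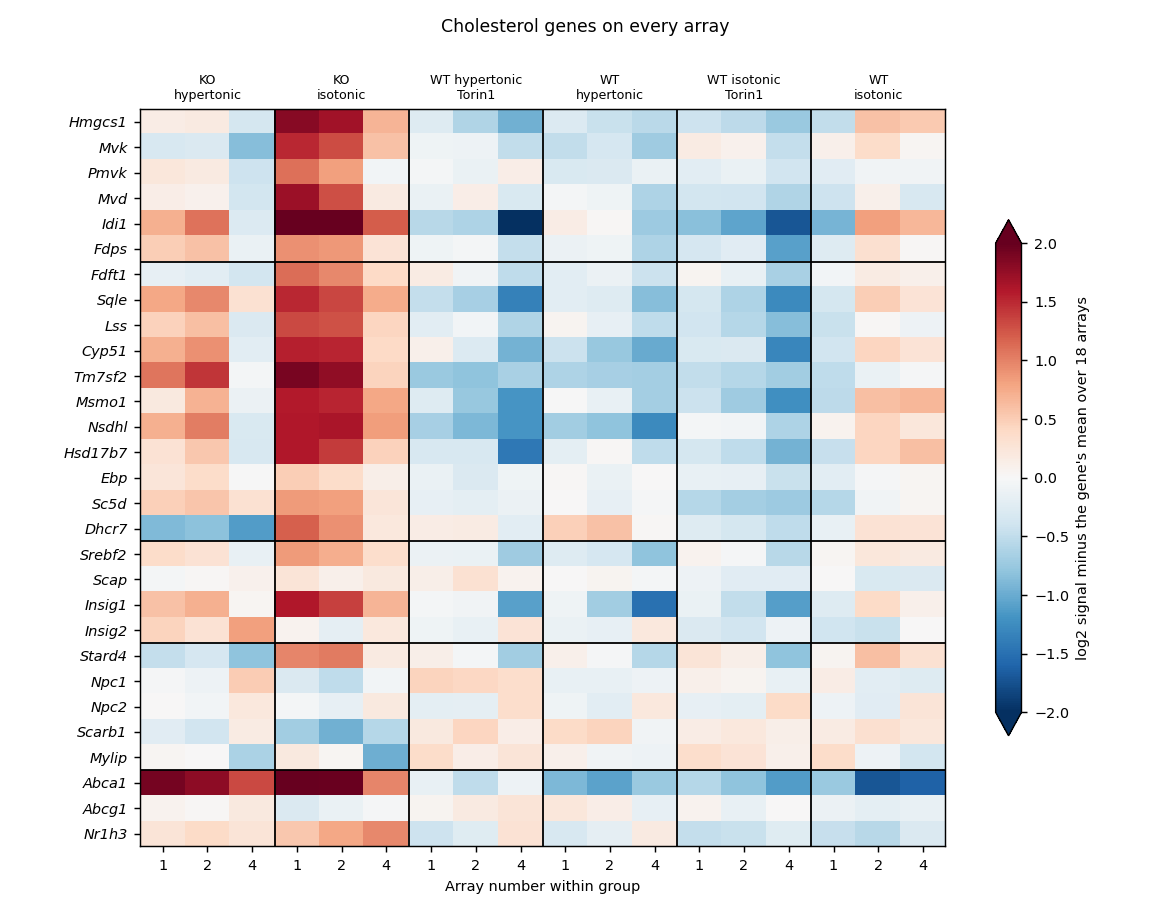
Log2 signal of the 29 measured genes (rows, ordered by role) on the 18 arrays (columns, by group and array number), as the difference from each gene's mean over all arrays, with colours clipped at -2 and 2. Most synthesis enzymes are highest in isotonic KO arrays 1 and 2, Dhcr7 is lowest in hypertonic KO arrays, and Abca1 is high in all 6 KO arrays.

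In KO cells 9 of the 17 synthesis enzymes fell in hypertonic medium. Of the 29 genes 11 fell and 2 rose, or 44.8%, against 30.1% of all genes tested, of which 17.2% fell and 12.9% rose. With a block for the array number 15 fell and 3 rose, when 36.3% of all genes were called. The median change was -0.55 over the 29 genes and 0.02 over all genes. Arrays did not overlap in 10 genes that were lower in hypertonic KO cells (23.3% of all genes) and 3 that were higher (22.3%). All 17 synthesis enzymes had a lower mean in hypertonic KO cells, 9 of them past the test (4 without isotonic KO array 1), with a median of -0.88. Cdh1 was also lower in hypertonic KO cells, as given above, and its part was not tested. Between single numbers the median of the 17 was -0.90, -0.67 and -0.73 for numbers 1, 2 and 4.

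In the mevalonate pathway 4 of 6 enzymes fell. Hmgcs1, the synthase that joins acetoacetyl-CoA and acetyl-CoA, read 10.50, 10.52 and 10.01 in hypertonic KO cells, against 12.17, 12.04 and 11.03 in isotonic KO cells, and fell by 1.40 ± 0.30 (limma adjusted p = 0.00228). Mvk, the kinase that phosphorylates mevalonate, read 8.93, 8.95 and 8.40 in hypertonic KO cells, against 10.76, 10.56 and 9.83 in isotonic KO cells, and fell by 1.62 ± 0.23, or 3.07-fold (limma adjusted p = 9.26e-05). For both genes the hypertonic and isotonic arrays did not overlap. Mvd, the decarboxylase that makes isopentenyl diphosphate, fell by 1.10 ± 0.29 (limma adjusted p = 0.0091), and Pmvk, which adds the second phosphate, fell by 0.63 ± 0.23 (0.0456). Idi1, the isomerase of the isoprene units, read 10.11, 10.48 and 9.13 against 11.46, 11.58 and 10.62 and missed the threshold without the block (-1.31 ± 0.52, limma adjusted p = 0.068, and 0.0192 under the block). Fdps, which joins these units to farnesyl diphosphate, changed by -0.37 ± 0.26 and was not called.

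Of the 11 enzymes after farnesyl diphosphate 5 fell. Dhcr7, which makes cholesterol from 7-dehydrocholesterol, read 8.14, 8.21 and 7.91 in hypertonic KO cells, against 10.22, 9.94 and 9.23 in isotonic KO cells. It fell by 1.71 ± 0.22, or 3.27-fold (limma adjusted p = 3.76e-05), and its hypertonic KO arrays were the 3 lowest of all 18 arrays. Fdft1, squalene synthase, read 11.05, 11.00 and 10.84 against 12.33, 12.17 and 11.62 and fell by 1.07 ± 0.20 (limma adjusted p = 0.000895). Msmo1, the C4 sterol methyl oxidase, fell by 1.04 ± 0.34, Nsdhl, the dehydrogenase of the same demethylation, by 0.88 ± 0.30, and Lss, lanosterol synthase, by 0.75 ± 0.26 (limma adjusted p = 0.0323, 0.0352 and 0.0398). Hsd17b7, the ketoreductase of that demethylation, read -0.99 ± 0.36 and was called with the block (limma adjusted p = 0.0507 without and 0.0143 with it). The squalene epoxidase Sqle, the demethylase Cyp51, the reductase Tm7sf2, the isomerase Ebp and the desaturase Sc5d read -0.52, -0.68, -0.55, -0.12 and -0.19 and were not called. With the block and without isotonic WT array 1, a setting added after these values had been seen, 18 of the 29 fell and 3 rose, when 37.2% of all genes were called. It added Fdps, Sqle and Cyp51 to the calls under the block (limma adjusted p = 0.00923, 0.00221 and 0.00717).

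Among the regulators, Insig2, which retains SCAP, rose by 0.48 ± 0.17 in hypertonic KO cells (limma adjusted p = 0.044). Srebf2 and Insig1, itself a target of SREBP2, read -0.47 ± 0.21 and -0.77 ± 0.37, called with the block (limma adjusted p = 0.0064 and 0.015) and not without it (0.111 and 0.141). Scap changed by -0.17 ± 0.10 and was not called. Stard4, a sterol carrier of the cytosol, read 8.59, 8.72 and 8.25 in hypertonic KO cells, against 10.03, 10.10 and 9.23 in isotonic KO cells, and fell by 1.27 ± 0.30 (limma adjusted p = 0.00462). Scarb1, the receptor for high-density lipoprotein, read 9.71, 9.56 and 10.11 against 9.24, 8.98 and 9.37 and rose by 0.60 ± 0.15 (limma adjusted p = 0.00814). For Stard4 and Scarb1 the hypertonic and isotonic KO arrays did not overlap. Nr1h3, which encodes LXR alpha, fell by 0.46 ± 0.17 (limma adjusted p = 0.0496), while the exporters Abca1 and Abcg1 changed by 0.00 ± 0.29 and 0.25 ± 0.11 and were not called. Npc1, which moves cholesterol out of lysosomes, read 0.42 ± 0.15 and was called with the block only (limma adjusted p = 0.0421 with and 0.0525 without it).

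With each array left out in turn, Hmgcs1, Mvk, Fdft1, Dhcr7, Stard4 and Scarb1 kept their calls, and the number of genes called ranged from 7 to 16. It was 7, with 1 rise and 6 falls, without array 1 or 2 of isotonic KO cells or array 4 of hypertonic KO cells. The median of the synthesis enzymes was -0.49 without hypertonic KO array 4. The share of all genes called in these fits is not given here, so the counts lack a background. Mvd was lost without isotonic KO array 1 (limma adjusted p = 0.0556). Nsdhl was lost without any of those 3 arrays (limma adjusted p = 0.125 to 0.183). Msmo1 was lost without the same 3 arrays or hypertonic KO array 1 (0.0834 to 0.12), and Lss without those 3 or isotonic Torin1 array 2 (0.0501 to 0.193). Insig2, Nr1h3 and Pmvk each lost their call without any of 9, 13 and 14 single arrays, at adjusted p up to 0.192, 0.182 and 0.235.

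**Figure D3:**
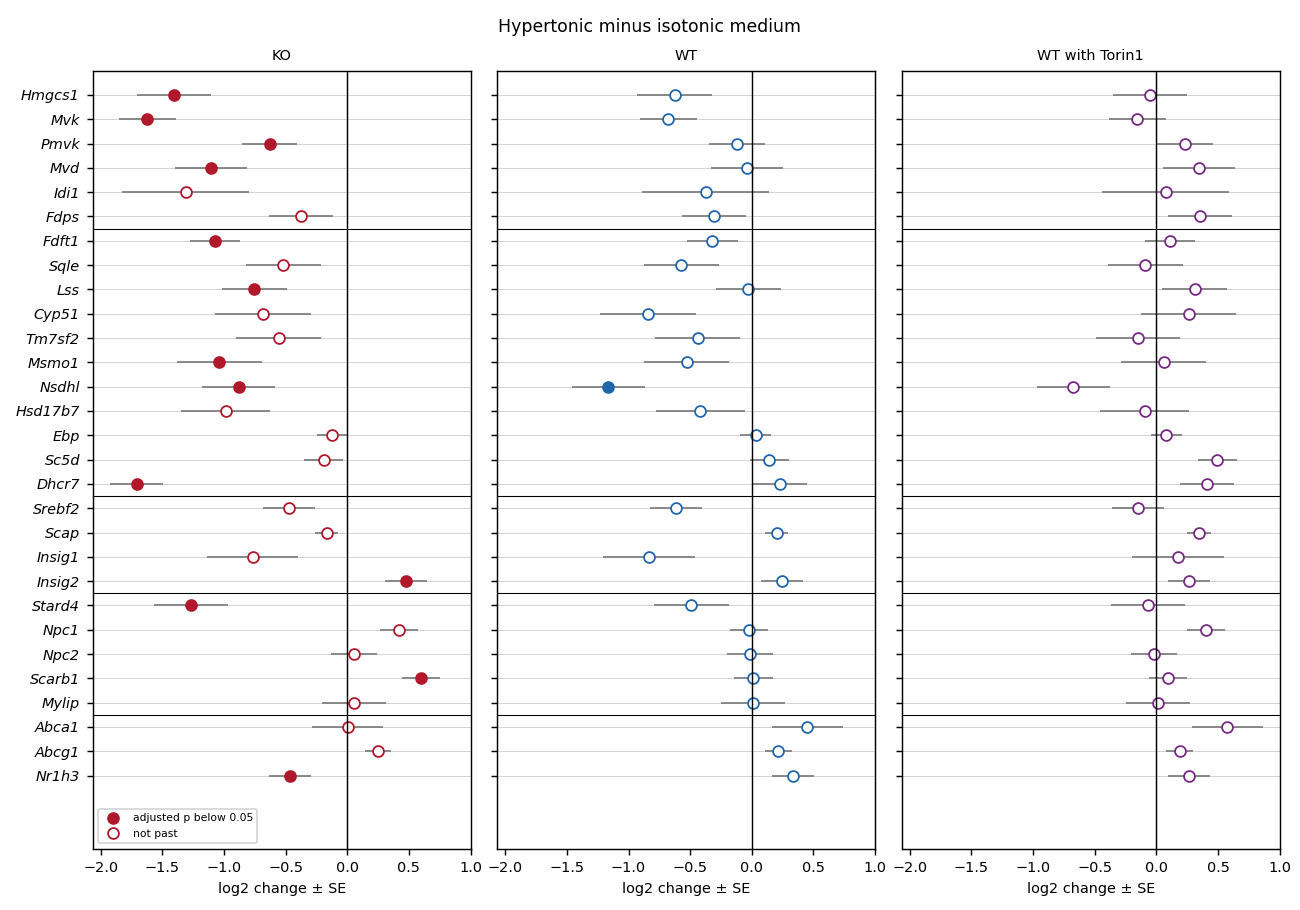
Change in log2 signal (hypertonic minus isotonic, x axis) with its standard error for the 29 genes (y axis, by role) in KO cells, WT cells and WT cells with Torin1, filled where the limma adjusted p is below 0.05. In KO cells 13 genes are filled and all 17 synthesis enzymes lie below 0; in WT cells Nsdhl alone is filled, and with Torin1 none is.

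In WT cells the same change of medium gave a single call. Among the 29 genes 1 fell and 0 rose (limma; 5 lower and 0 higher at an unadjusted p below 0.05), or 3.45%, against 8.24% of all genes tested, of which 4.3% fell and 3.94% rose. Of all genes 22.7% had an unadjusted limma p below 0.05. Arrays did not overlap in 6 genes that were lower (11.8% of all genes) and 0 that were higher (13.5%). Nsdhl read 9.47, 9.36 and 8.90 in hypertonic WT cells, against 10.23, 10.60 and 10.40 in isotonic WT cells, and fell by 1.16 ± 0.30 (limma adjusted p = 0.0263). Its hypertonic and isotonic arrays did not overlap. The call was lost without any one of the 6 arrays of these groups (limma adjusted p = 0.0522 to 0.0857). The median change was -0.12 over the 29 genes and -0.37 over the 17 synthesis enzymes, 14 of which had a lower mean.

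With the array numbers as a block 5 genes fell and 1 rose, when 15% of all genes were called. Those added were Mvk (-0.68, limma adjusted p = 0.00276 with the block), Srebf2 (-0.62, 0.00413), Insig1 (-0.83, 0.0232) and Cyp51 (-0.84, 0.0437), which fell, and Insig2 (0.25, 0.0463), which rose. The numbers did not move alike. Of the synthesis enzymes 16 and 17 of 17 were lower in hypertonic medium within numbers 2 and 4, with medians of -0.41 and -0.67, but 6 of 17 within number 1, with a median of 0.22. Without isotonic WT array 1 the median of the 17 was -0.58, against -0.23 without hypertonic WT array 4. With isotonic WT array 1 left out 0 of the 29 were called (limma; 8 lower and 2 higher at an unadjusted p below 0.05), when 4.68% of all genes were. With the block and without that array, in the added setting, 13 of the 29 fell, when 10.6% of all genes were called and 6.22% fell. They were Hmgcs1, Mvk, Idi1, Fdps, Fdft1, Sqle, Cyp51, Msmo1, Nsdhl, Hsd17b7, Srebf2, Insig1 and Stard4, with Hmgcs1 at -1.09 ± 0.18 (limma adjusted p = 0.00332). Isotonic WT array 1 read low in the synthesis enzymes, so leaving it out raises the isotonic WT mean and deepens such falls by construction.

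With Torin1 the hypertonic change in WT cells was near 0 for most of these genes. Of the 29 genes 0 were called (limma; 3 higher and 1 lower at an unadjusted p below 0.05), against 3.37% of all genes, of which 1.65% rose and 1.72% fell. The unadjusted limma p was below 0.05 in 16.6% of all genes. Arrays did not overlap in 6 genes that were higher (11.2% of all genes) and 1 that was lower (9.01%). The median was 0.11 over the 29 and 0.08 over the 17 synthesis enzymes, and that of the 17 ranged from -0.09 without isotonic Torin1 array 4 to 0.28 without hypertonic Torin1 array 4. Nsdhl read 9.50, 9.27 and 8.99 in hypertonic cells with Torin1, against 10.12, 10.11 and 9.55 in isotonic cells with Torin1 (-0.67 ± 0.30), and its arrays did not overlap. It was called with the block (limma adjusted p = 0.037 with and 0.267 without it). Scap read 11.06, 11.25 and 11.01 in hypertonic cells with Torin1, against 10.83, 10.72 and 10.72 in isotonic cells with Torin1 (0.35 ± 0.10), and was also called with the block (0.0405 with and 0.06 without it). The block called 7.86% of all genes here. With the block and without isotonic WT array 1, Fdps, Sc5d, Scap and Insig2 rose and Nsdhl fell, when 8.85% of all genes were called.

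The hypertonic change was tested for a difference between KO and WT cells. Among the 29 genes 2 had a lower change in KO than in WT cells and 0 a higher one (limma; 6 lower and 1 higher at an unadjusted p below 0.05), against 9.5% of all genes called, 6.15% lower and 3.35% higher. The unadjusted limma p was below 0.05 in 22.3% of all genes. Dhcr7 changed by -1.71 in KO and by 0.23 in WT cells, a difference of -1.94 ± 0.31 (limma adjusted p = 0.00172). In every number it was lower in hypertonic KO cells, by -2.07, -1.73 and -1.32, while in WT cells it changed by 0.64, 0.30 and -0.26. Nr1h3 changed by -0.46 in KO and 0.33 in WT cells, a difference of -0.80 ± 0.24 (limma adjusted p = 0.0476).

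With the block, which called 14.5% of all genes, Mvk, Mvd, Fdft1 and Stard4 were added, with differences of -0.94, -1.07, -0.76 and -0.78 (limma adjusted p = 0.00331, 0.0257, 0.0192 and 0.0489). For the other 23 genes no difference was called, and a miss does not show that the lines responded alike. Hmgcs1, for example, differed by -0.78 ± 0.43 and Sqle by 0.05 ± 0.43. Dhcr7 kept its call with each array left out, and Nr1h3 lost it without any of 13 single arrays (limma adjusted p = 0.0521 to 0.108). The median difference of the 17 synthesis enzymes was -0.51 with all arrays, -0.24 without isotonic WT array 1, -0.32 without hypertonic KO array 4, -0.34 without isotonic KO array 1 and -0.85 without isotonic KO array 4. Without isotonic KO array 4 the test called 5 genes.

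Torin1 in isotonic medium was read in WT cells only. None passed the test, 0 of the 29 and 0% of all genes (limma; 8 of the 29 lower and 0 higher at an unadjusted p below 0.05, and 470 of all genes, or 2.99%). All 17 synthesis enzymes had a lower mean with Torin1, with a median of -0.48 (-0.31 without isotonic Torin1 array 4), against 0.01 over all genes. Idi1 read 8.56, 8.35 and 7.69 in isotonic cells with Torin1, against 8.47, 10.22 and 10.06 in isotonic WT cells. Its other probe set averaged 8.07 with Torin1 and 9.05 without it, against 8.20 and 9.59 on the probe set used. Msmo1 read 9.59, 9.30 and 8.78 with Torin1, against 9.49, 10.61 and 10.68 without it. In both genes the Torin1 arrays and isotonic WT array 1 lay below isotonic WT arrays 2 and 4. Arrays did not overlap in 2 of the 29 genes, Nsdhl and Dhcr7, both lower with Torin1 (2.53% of all genes were lower without overlap and 3.49% higher).

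Within numbers the synthesis enzymes split in the same way. With Torin1 3 of 17 were lower within number 1, with a median change of 0.05, and all 17 within number 2 and within number 4, with medians of -0.60 and -0.79. Without isotonic WT array 1 the test still called 0 of the 29 (limma; 9 lower and 1 higher at an unadjusted p below 0.05, and 25 genes in all called, 0.159%). With the block as well, in the added setting, 13 of the 29 fell and 0 rose, when 1.88% of all genes were called and 1.57% fell. They were 10 synthesis enzymes, Srebf2, Insig1 and Stard4. Idi1 fell by 2.12 ± 0.24, Msmo1 by 1.56 ± 0.19, Sqle by 1.26 ± 0.13 and Hmgcs1 by 1.24 ± 0.18 (limma adjusted p = 0.00132, 0.00246, 0.000767 and 0.00584). Fdps, Lss, Cyp51, Hsd17b7, Sc5d, Dhcr7 and the 3 genes outside synthesis fell by 0.48 to 1.24. What set isotonic WT array 1 apart was not tested, and these 13 calls rest on arrays 2 and 4 of the isotonic WT group. That array was set apart partly by its low level of these same enzymes. Leaving it out raises the isotonic WT mean by construction, so 13 of 29 against 1.57% is not a test of Torin1.

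**Figure D4:**
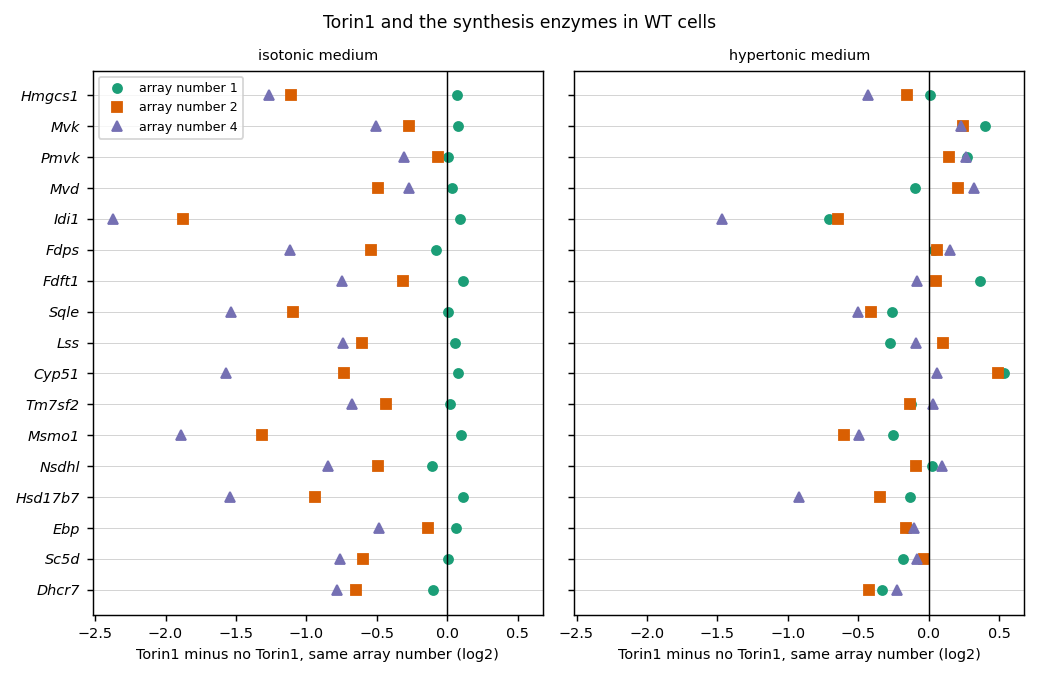
Change in log2 signal with Torin1 (x axis) for the 17 synthesis enzymes (y axis) in WT cells, each point 1 pair of arrays with the same number. In isotonic medium the points of number 1 lie near 0 and those of numbers 2 and 4 all lie below 0; in hypertonic medium the 3 numbers lie on both sides of 0.

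Torin1 in hypertonic medium gave no called gene among the 29 (limma; 2 higher and 0 lower at an unadjusted p below 0.05), against 0.115% of all genes, of which 0.0573% rose and 0.0573% fell. The unadjusted limma p was below 0.05 in 12.1% of all genes. Arrays did not overlap in 5 genes that were higher (7.68% of all genes) and 0 that were lower (7.95%). The median was 0.02 over the 29 and -0.09 over the synthesis enzymes. Within each of the 3 numbers 10 of the 17 were lower, though not the same 10 in every number. Idi1 read 8.85, 8.78 and 7.20 in hypertonic cells with Torin1, against 9.55, 9.42 and 8.67 in hypertonic WT cells (-0.94 ± 0.52, limma adjusted p = 0.504). Its other probe set, not used for the test, lay closer, averaging 8.28 with Torin1 and 8.62 without it, against 8.27 and 9.21 on the probe set used. Npc1 read 11.62, 11.59 and 11.54 with Torin1, against 11.03, 11.04 and 11.08 without it (0.54 ± 0.15, limma adjusted p = 0.152), with no overlap of the arrays. With the block and without isotonic WT array 1 Idi1 fell, when 4.18% of all genes were called (limma adjusted p = 0.0266).

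The hypertonic change with Torin1 minus that without it was tested as well, and 0 of the 29 genes were called, as were 0% of all genes (limma; 0 of the 29 and 317 of all genes at an unadjusted p below 0.05). All 17 synthesis enzymes had a positive difference, with a median of 0.43 (0.56 without isotonic WT array 1, when 0 genes were called by limma and 4 of the 29 were higher at an unadjusted p below 0.05, and 0.28 without isotonic Torin1 array 4). This test, the hypertonic change in WT cells and the isotonic Torin1 change share the isotonic WT arrays, so they are not independent readings.

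Between the lines, KO cells in isotonic medium had higher levels of most of these genes than WT cells. Of the 29 genes 15 rose and 1 fell, or 55.2%, against 14.6% of all genes tested, of which 7.78% rose and 6.84% fell. The median difference was 0.84 over the 29 genes and 0.02 over all genes. All 17 synthesis enzymes were higher in the KO mean, 12 past the test, with a median of 1.05. This comparison shares the isotonic KO arrays with the hypertonic change in KO cells, so a high isotonic KO level enters both.

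Abca1, which exports cholesterol to apolipoprotein A-I, read 10.71, 10.63 and 9.62 in isotonic KO cells, against 7.90, 6.94 and 7.03 in isotonic WT cells, and rose by 3.03 ± 0.29, or 8.15-fold (limma adjusted p = 1.77e-06). Nr1h3 read 7.71, 7.94 and 8.14 against 6.71, 6.62 and 6.88 and rose by 1.20 ± 0.17 (limma adjusted p = 0.000111). Abcg1, the exporter to mature high-density lipoprotein, read 6.68, 6.83 and 6.94 in isotonic KO cells, against 6.85, 6.78 and 6.82 in isotonic WT cells, with a difference of 0.00 ± 0.11. The exporters thus read differently, Abca1 with no overlap of the lines and Abcg1 with full overlap. Abcg1 read low throughout, at 6.68 to 7.23 over all arrays, where the median gene-level signal of an array was 7.53 to 7.74. Whether its probe set could show a difference at that level was not tested.

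Among the enzymes Idi1 rose by 1.63 ± 0.52, Tm7sf2 by 1.59 ± 0.34, Mvd by 1.26 ± 0.29, Hmgcs1 by 1.19 ± 0.30 and Lss by 1.18 ± 0.26 (limma adjusted p = 0.0445, 0.00443, 0.00723, 0.0134 and 0.00535). Tm7sf2, a C14 sterol reductase, read 9.94, 9.82 and 8.49 in isotonic KO cells, against 7.54, 7.91 and 8.03 in isotonic WT cells. Nsdhl, Sqle, Mvk, Sc5d, Pmvk, Fdft1 and Ebp rose by 0.39 to 1.12, as did Scap by 0.39 ± 0.10. Scarb1 read 9.24, 8.98 and 9.37 in isotonic KO cells, against 10.11, 10.26 and 10.18 in isotonic WT cells, and fell by 0.98 ± 0.15 (limma adjusted p = 0.000318). Over the 29 genes the isotonic KO and WT arrays did not overlap in 18 that were higher (17.2% of all genes) and 1 that was lower (14.1%). The 16 called genes are among them. The other uptake and transport genes, Stard4, Npc1, Npc2 and Mylip, whose product marks lipoprotein receptors for degradation, changed by 0.41, -0.18, 0.02 and -0.22 and were not called.

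The block called 23 rises and 1 fall, when 20.9% of all genes were called. It added Fdps (0.66), Cyp51 (1.05), Msmo1 (1.05), Hsd17b7 (0.96), Dhcr7 (0.64), Srebf2 (0.49), Insig1 (1.14) and Insig2 (0.31), at limma adjusted p from 0.00191 to 0.0277. Within numbers 1, 2 and 4 the median of the synthesis enzymes was 1.76, 0.95 and 0.24. Mvd, Lss, Tm7sf2, Sc5d, Abca1, Nr1h3 and Scarb1 kept their calls with each array left out in turn. The test called 7 genes without isotonic KO array 1, 9 without isotonic KO array 2 and 9 without isotonic WT array 1. Without any one of these 3 arrays Hmgcs1, Fdft1, Sqle and Nsdhl lost their calls (limma adjusted p = 0.0669 to 0.129). Mvk was lost without isotonic KO array 1 (0.0541), Scap without that array or isotonic WT arrays 2 or 4 (0.0527 to 0.0622), and Pmvk without any of 5 arrays (0.0669 to 0.182). Idi1 and Ebp were lost without any of 8 and 14 single arrays, at adjusted p up to 0.208 and 0.199. Thy1, Pparg, Cdh1 and Tek were higher in the KO line, as were the adipocyte and epithelial list means, though not every marker of these lists was. These markers stand beside the differences above, and their part in them was not tested.

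**Figure D5:**
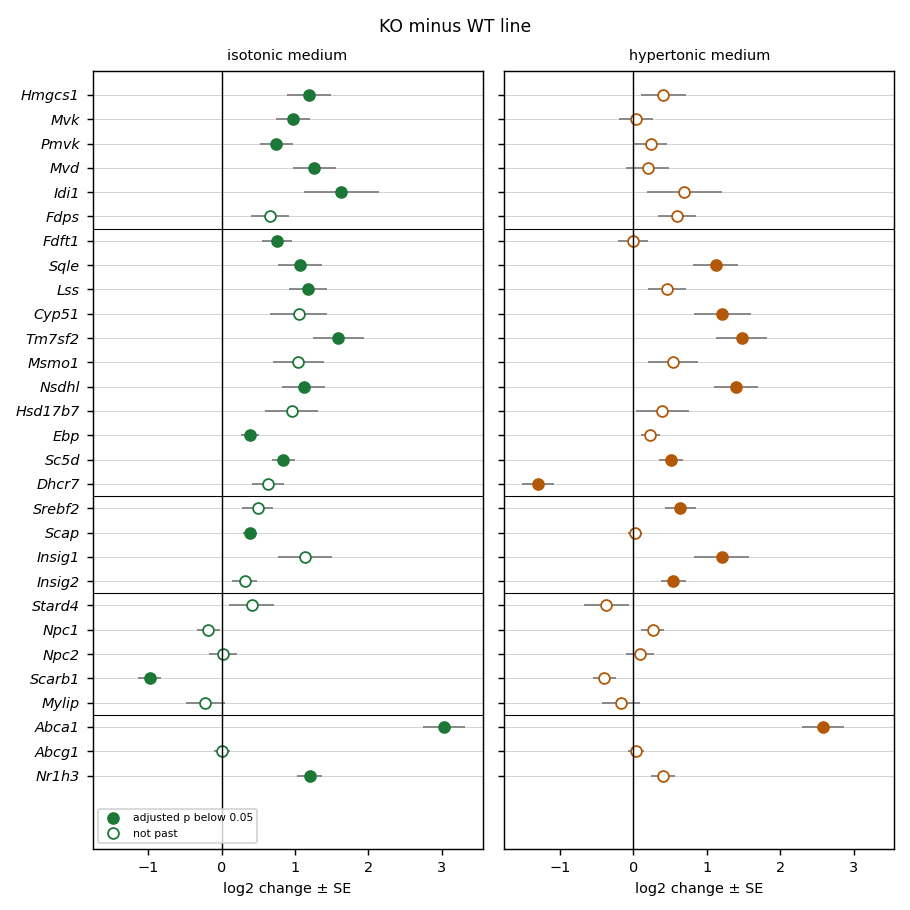
Difference in log2 signal between lines (KO minus WT, x axis) with its standard error for the 29 genes (y axis, by role) in isotonic and in hypertonic medium, filled where the limma adjusted p is below 0.05. All 17 synthesis enzymes lie above 0 in isotonic medium, Dhcr7 lies at -1.30 in hypertonic medium, and Abca1 is the farthest to the right in both, at 3.03 and 2.58.

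In hypertonic medium the share of these genes called between the lines was near that of all genes when both directions were pooled. Of the 29 genes 9 rose and 1 fell, or 34.5%, against 31.9% of all genes tested, of which 13.8% rose and 18% fell. The median difference was 0.40 over the 29 genes and 0.46 over the synthesis enzymes, against 0.04 over all genes. Abca1 read 10.57, 10.43 and 9.97 in hypertonic KO cells, against 7.74, 7.58 and 7.90 in hypertonic WT cells, and rose by 2.58 ± 0.29 (limma adjusted p = 7.86e-06). Dhcr7 read 8.14, 8.21 and 7.91 against 9.50, 9.61 and 9.04 and fell by 1.30 ± 0.22, or 2.46-fold (limma adjusted p = 0.000313). For both genes the lines did not overlap. Over the 29 genes this held for 10 that were higher (21.8% of all genes) and 1 that was lower (23%). Dhcr7 was the 1 gene of the 29 that fell.

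Of the 6 mevalonate enzymes 0 were called in this comparison (limma; 1 higher at an unadjusted p below 0.05), and Mvk and Fdft1 differed by 0.03 ± 0.23 and -0.00 ± 0.20. The unadjusted limma p was below 0.05 in 41.9% of all genes here. Of the later enzymes 5 rose, Tm7sf2 by 1.47 ± 0.34, Nsdhl by 1.40 ± 0.30, Cyp51 by 1.21 ± 0.39, Sqle by 1.12 ± 0.30 and Sc5d by 0.51 ± 0.16 (limma adjusted p = 0.00388, 0.00207, 0.0259, 0.0103 and 0.0237). Nsdhl read 10.87, 11.19 and 9.87 in hypertonic KO cells, against 9.47, 9.36 and 8.90 in hypertonic WT cells. Insig1 rose by 1.20 ± 0.37, Srebf2 by 0.64 ± 0.21 and Insig2 by 0.54 ± 0.17 (limma adjusted p = 0.0221, 0.0309 and 0.0228). Scarb1 and Nr1h3 differed by -0.40 ± 0.15 and 0.40 ± 0.17 and were not called without the block. Scarb1 was not called with the block either. The block, which called 39.1% of all genes, added Fdps (limma adjusted p = 0.00547) and Nr1h3 (0.0133).

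Tm7sf2, Nsdhl, Dhcr7 and Abca1 kept their calls in hypertonic medium with each array left out in turn. For counts with an array left out here, the share of all genes called is not given. The number called fell to 6 without hypertonic KO array 1 and to 5 without hypertonic KO array 2. Insig1 and Srebf2 lost their calls without either array or hypertonic WT array 4 (limma adjusted p = 0.0703 to 0.136). Sc5d lost it without either or hypertonic WT array 2 (0.0654 to 0.0873), and Cyp51 without either or hypertonic WT arrays 2 or 4 (0.0658 to 0.111). Sqle lost it without hypertonic KO array 2 (0.05) or hypertonic WT array 4 (0.0509), and Insig2 without hypertonic KO array 4 or hypertonic WT arrays 1 or 2 (0.0708 to 0.104).

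A list of 38 other sterol genes gives the surroundings of the pathway, of which 32 have a probe set and were tested. In hypertonic KO cells 6 rose and 9 fell, or 46.9%, against 30.1% of all genes. Without isotonic KO array 1 the counts were 6 and 8. Cyp7b1, the oxysterol hydroxylase, fell by 1.27 ± 0.46, Hsd3b7, a bile acid enzyme, by 1.06 ± 0.18 and Dhdds, which builds dolichol, by 0.94 ± 0.12, while Fntb, a farnesyltransferase subunit, fell by 0.92 ± 0.25. Cyp7b1 lost its call without isotonic WT array 1 (limma adjusted p = 0.0534). In hypertonic WT cells 2 were higher and 3 lower at an unadjusted limma p below 0.05, which 22.7% of all genes passed. By the adjusted test 0 rose and 2 fell, or 6.25%, against 8.24% of all genes. They were Mbtps1, the protease that makes the opening cut in SREBP proteins, at -0.88 ± 0.11, and Lpcat3, a phospholipid enzyme, at -0.45 ± 0.13 (limma adjusted p = 0.00041 and 0.0386). In hypertonic WT cells with Torin1 Mbtps1 fell by 0.90 ± 0.11, the 1 call of the 32, or 3.12%, against 3.37% of all genes. With the block Fntb and Cyb5r3, a cytochrome b5 reductase, also fell there and Nceh1, a cholesteryl ester hydrolase, rose (limma adjusted p = 0.00414, 0.0296 and 0.0389). Torin1 gave 0 called genes of the 32 in either medium by limma. At an unadjusted limma p below 0.05 there were 2 in isotonic and 4 in hypertonic medium. Of all genes 2.99% and 12.1% passed that threshold.

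Between the lines 7 of the 32 rose and 3 fell in isotonic medium, or 31.2%, against 14.6% of all genes. In hypertonic medium 7 rose and 7 fell, or 43.8%, against 31.9% of all genes. With the block 8 rose and 7 fell in isotonic medium (20.9% of all genes called), and 10 rose and 10 fell in hypertonic medium (39.1%). In isotonic medium the counts were 4 and 1 without isotonic KO array 1, for which the share of all genes is not given here. They were 4 and 4 without isotonic WT array 1, when 11.7% of all genes were called. Cyp7b1 fell in both media, with -2.30 ± 0.46 in isotonic and -3.47 ± 0.46 in hypertonic medium. Pltp, the phospholipid transfer protein, rose by 2.22 ± 0.29 in isotonic and 2.20 ± 0.29 in hypertonic medium. Lipa, the lysosomal lipase that frees cholesterol from its esters, rose by 0.98 ± 0.30 in isotonic medium, and Lpcat3 by 0.84 ± 0.13. Without either of the arrays that call for care Cyp7b1, Pltp and Lpcat3 kept their calls in isotonic medium, and Lipa lost it without isotonic WT array 1 (limma adjusted p = 0.128). In hypertonic medium Nceh1 fell by 1.38 ± 0.19 and Gramd1c, a sterol transporter, rose by 0.98 ± 0.10.

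The hypertonic change differed between KO and WT cells in 4 of the 32, or 12.5%, against 9.5% of all genes. Gramd1b, a sterol transporter, differed by -1.11 ± 0.24, Nceh1 by -0.89 ± 0.26 and Dhdds by -0.77 ± 0.16, and Nus1, the partner of Dhdds, by 0.52 ± 0.15. With the block 4 were higher and 3 lower, when 14.5% of all genes were called. Ggps1, Gramd1a and Osbp were added with higher changes in KO cells (limma adjusted p = 0.0325, 0.0103 and 0.00362). Nus1 and Nceh1, with isotonic KO array 1 left out, lost their calls (limma adjusted p = 0.065 and 0.105), and Nceh1 also without isotonic WT array 1 (0.0537).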

How the data were processed

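The authors deposited log2 signals per probe set, made by RMA in R 2.11.1 per the submitters' processing notes. No genome build for the arrays is named in those sources. Of 34760 probe sets, 21640 name 1 gene, 1321 name several and 11799 are unnamed here. Genes were tested when their highest group mean passed the 30th percentile of all signals (5.86). All 18 arrays were fitted together in limma 3.58.1 (R 4.3.3) without a block, and p-values were adjusted by Benjamini-Hochberg over 15711 genes. The number of arrays limits the precision. Groups came from titles, and 0 columns belonged to no sample. Same-numbered arrays pair: in all 21 pairs of groups and numbers compared, deviations from group means correlated (r = 0.156 to 0.847). The fit was tested on simulated data for the hypertonic effect in KO cells: 86 of 100 changes of 1 log2 and 98 of 100 of 2 log2 were recovered, with 9 false calls among 193. The simulated arrays were independent, without the shared deviations of same-numbered arrays, and far fewer genes were changed than were called here. These rates therefore check the code and do not carry over to the calls above. Alternatives changed the filter, probe set, normalization, prior, arrays fitted, block, label of isotonic KO array 1 and arrays left out. All member genes are described; of the other sterol genes, at most 4 called genes per comparison with the largest change are named. Members and lists were chosen with earlier results of these data known.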

Additional observations from a re-analysis of the deposited data

Results flagged for a closer look

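The hypertonic change of 2 genes differed between the lines by the test of the difference itself. Dhcr7, the last reductase of cholesterol synthesis, changed by -1.71 in KO cells and by 0.23 in WT cells, a difference of -1.94 (limma adjusted p = 0.00172). Nr1h3, which encodes LXR alpha, changed by -0.46 in KO cells and by 0.33 in WT cells, a difference of -0.80 (limma adjusted p = 0.0476). Dhcr7 kept its call with each array left out. Nr1h3 lost its call without any of 13 single arrays (limma adjusted p = 0.0521 to 0.108).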

How the results depend on the processing

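Over 42 calls and 30 alternatives, 1061 of 1260 checks kept the direction and the call, 199 lost the call and 0 reversed, and 9 calls held in every alternative run. Counts of genes called among the 29 are given here, against 13 for the hypertonic change in KO cells, 1 in WT cells, 0 in WT cells with Torin1, 0 for Torin1 in either medium, 16 for KO against WT in isotonic and 10 in hypertonic medium, and 2 for the difference of hypertonic change between the lines. With the array numbers as a replicate block the count was 6 in WT cells, 2 with Torin1 and 6 for the difference; it was 18 and 24 for the hypertonic change in KO cells and the isotonic line comparison, within 1.5 times, and among the 29 genes the block changed no call beyond those given in the report. With the block and without isotonic WT array 1, chosen after seeing the data, the counts were 21, 13, 5, 13, 1, 19, 16 and 5 in the order hypertonic KO, WT and WT with Torin1, Torin1 isotonic and hypertonic, KO against WT isotonic and hypertonic, and the difference. In the same order 37.2%, 10.6%, 8.85%, 1.88%, 4.18%, 17.8%, 40.1% and 13.1% of all genes were called. With isotonic KO array 1 as WT the counts were 4 in KO cells, 3 in WT cells, 0 and 6 between the lines in isotonic and hypertonic medium, and 1 for the difference. That array's Thy1 and Pparg levels, given in the report, lie with the KO arrays. Without the arrays of number 4 the counts were 21, 6 and 1 for the hypertonic changes, 1 for hypertonic Torin1, 25 and 17 between the lines and 10 for the difference. The share of all genes called with isotonic KO array 1 as WT or without the arrays of number 4 is not given here. The counts under these settings therefore lack a background. The isotonic line comparison fitted on its own groups gave 10. Quantile normalization gave 1 with Torin1, and the difference gave 1 without the filter, after quantile normalization or after cyclic loess. Leaving out each array in turn gave 7 to 16, 0 to 2 and 0 to 1 for the hypertonic changes, 0 for Torin1, 7 to 21 and 5 to 12 between the lines and 1 to 5 for the difference. For most of these fits with 1 array left out the share of all genes called is not given here either. The causes were not tested. Centring arrays on their medians moved the share of higher calls over all genes to 68.9% from 42.9% in hypertonic KO cells, where the median of all genes moved to 0.17 from 0.02, to 69.8% from 43.4% between hypertonic lines (0.18 from 0.04) and to 69.8% from 35.3% for the difference (0.17 from -0.01). The 29 genes then gave 4 rises and 6 falls, 13 rises and 1 fall, and 1 higher and 1 lower. Quantile normalization moved the share with Torin1 to 59.1% from 49.1%.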
